A study of Mus musculus with 2 samples.

Results

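Round spermatids are the haploid cells that follow the second meiotic division, before the nucleus is condensed and the tail is completed. They were picked out of a whole-testis single-cell library by 6 marker genes: Acrv1, Spaca1 and Spaca3, which encode acrosome proteins, and Tex36, Spata46 and Tsga8. A barcode (the tag of 1 droplet) was a member when it had at least 500 detected genes and 3000 unique molecular identifiers (UMIs, each counting 1 captured RNA molecule). The 6 markers had to make up at least 0.15% of its UMIs, Prm1 and Prm2 together less than 2%, and Piwil1 fewer than 10 UMIs. In the wild-type (WT) library 194 barcodes met the rule, which is 8.74% of the 2219 barcodes over the gene and UMI minimums (7.6% to 9.996%). The library held 5415 barcodes and the series 12533. In the RAD21L KO library the rule found 0 of 3464 barcodes over the minimums. An approximate upper limit on the share, not an exact interval, is 0.0866%.

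The 2 libraries came from dissociated testes of mice aged 55 days, 1 library of Rad21l+/+ and 1 of Rad21l-/- genotype, and the labels give no strain. RAD21L belongs to the cohesin rings that form during meiosis. There were 33096309 UMIs in the WT and 28001992 in the KO library, and 14 barcode sequences occurred in both. With 1 library per genotype there was no replicate and no test, and the intervals in parentheses are exact 95% intervals that cover counting error only.

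Spermatids first build the acrosome, the secretory vesicle that caps the nucleus and holds the enzymes and membrane proteins used at fertilisation, and begin the flagellum. Later, nuclear elongation comes with the replacement of histones by transition proteins and then protamines. Transcription stops during that change, so many mRNAs are made early, stored and translated later. X- and Y-linked genes are silenced in pachytene spermatocytes, and a share of them is transcribed again in spermatids. Sister spermatids remain joined by cytoplasmic bridges.

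Members were set beside 3 other groups of WT barcodes over the same minimums. Piwil1, which encodes a piRNA-binding protein, had 10 or more UMIs in 366 barcodes (Piwil1-high), whose markers of pachytene and diplotene spermatocytes made up 0.515% of UMIs against 0.327% in the members. Prm1 and Prm2, the protamines, made up 2% or more in 1232 of the others (protamine-high), whose markers of elongating spermatids made up 22.7% of UMIs against 1.27%. The first list includes Piwil1 and the second Prm1 and Prm2, so both values partly restate how the groups were chosen. The median was 39 Piwil1 UMIs per Piwil1-high barcode, and 13.0% of UMIs from Prm1 and Prm2 per protamine-high barcode. The remaining 427 barcodes met none of the 3 conditions. Members had a median of 13340 UMIs (3009 to 45250), with 41 under 5000 and 134 at 10000 or more. The medians were 31536 UMIs in Piwil1-high, 5854 in protamine-high and 6553 in the remaining barcodes.

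The marker values describe the choice and are not findings. All 6 markers had a UMI in 151 of the 194 members and at least 3 of them in 193. Acrv1 stood at 465 CPM (UMIs of the gene per 1000000 UMIs) in the members, 12.3 CPM in Piwil1-high and 79.7 CPM in protamine-high barcodes. The marker share was 0.152% in the lowest member and just under the limit in the highest of the remaining barcodes. There were 27 members at 0.15% to 0.20% and 33 barcodes just outside at 0.10% to 0.15%. Prm1 and Prm2 made up 1% to 2% in 32 members, while 26 barcodes with enough markers lay just outside at 2% to 3%. The share of Prm1 and Prm2 thus ran on across the 2% limit, whereas no member had more than 4 Piwil1 UMIs and 120 had none. Among members this share fell with total UMIs (Spearman's rho -0.67), and the part of depth in it was not tested.

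**Figure D1:**
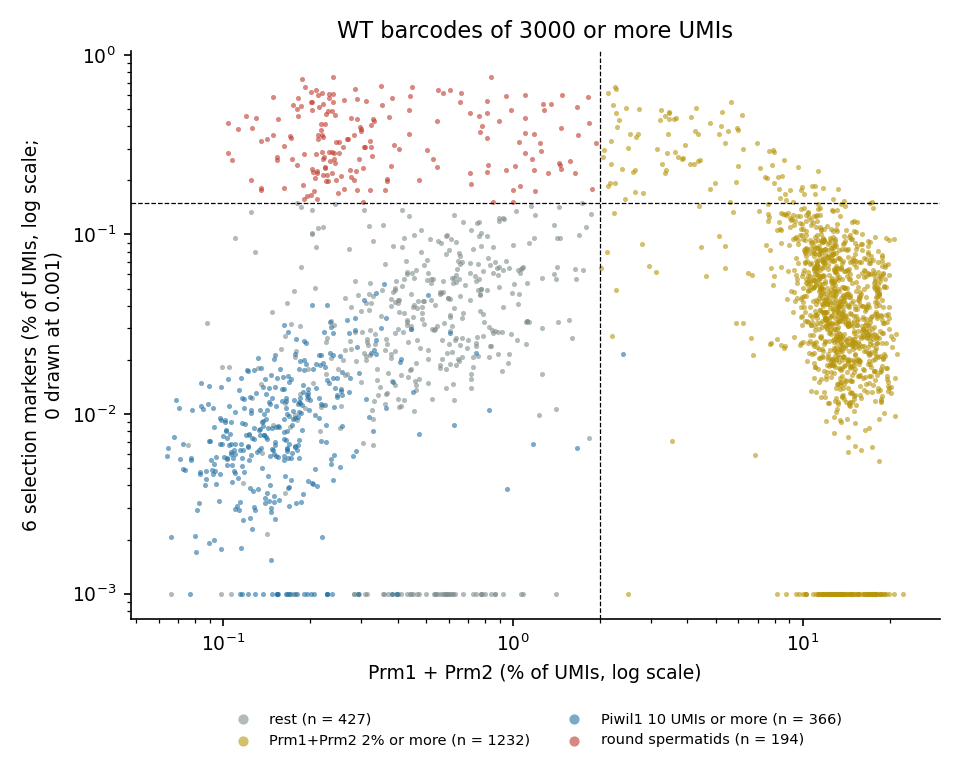
Each point is 1 WT barcode of 3000 or more UMIs, with the share of its UMIs from Prm1 and Prm2 on the horizontal axis and from the 6 markers on the vertical axis, both on log scales; dashed lines mark the 2% and 0.15% limits. The 194 members fill the upper left, the 1232 protamine-high barcodes lie to the right of 2%, and 100 barcodes pass the marker limit at 2% protamine or more.

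Markers of other testis cells were low in the members. Of 12 spermatogonia markers, 1 (Sall4) had no UMI, and together they made up 0.00299% of UMIs. Leydig markers made up 0.00128%, with Cyp17a1, Hsd3b1, Insl3 and Hsd17b3 at 0. Myeloid, stromal and endothelial markers made up 0.000349%, 0.00120% and 0.000504%. The 12 Sertoli markers made up 0.0260% in sum and 0.00618% in the median member, with a range of 0 to 1.94%. Amh was at 0, 79 members had no Sertoli UMI, and 4 members carried 0.2% or more. For comparison, 45 WT barcodes with somatic markers at 1% or more of their UMIs had Sertoli markers at 1.49%.

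Protamine and transition protein RNA was also present outside spermatids. Prm1 and Prm2 gave a median of 37 UMIs per member, 34 in the remaining barcodes, 31 in the 45 somatic-marker barcodes and 47 in Piwil1-high barcodes, against 785 in protamine-high ones. The sum of Tnp1 and Tnp2 was a median of 24 UMIs per member and 16 in somatic-marker barcodes. Tnp1, transition protein 1, stood at 1359 CPM in members and 1205 CPM in somatic-marker barcodes. Protamine and transition protein RNA in the typical member was therefore near the level found in somatic-marker barcodes. The latter are given beside low values as a rough reference for free RNA. For genes that somatic cells transcribe themselves they do not measure it. In the highest of the 45, Prm1 and Prm2 made up 8.41% of UMIs, and doublets were not removed.

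The genome-wide contrast was broad. Against all other WT barcodes over the minimums, 2595 of 15103 genes with at least 50 UMIs were at least 2-fold higher in members (17.2%) and 4895 were at least 2-fold lower (32.4%). Against Piwil1-high barcodes, 2687 of 11773 were higher (22.8%) and 4484 lower (38.1%). Against protamine-high barcodes, 5366 of 9935 were higher (54.0%) and 1431 lower (14.4%). Genes at least 2-fold above both numbered 1198 of the 6203 with at least 50 UMIs in members alone (19.3%). That base differs from the one used for the other shares, so they cannot be set side by side. The 9 selection genes are left out of these counts. Since members were picked on the same barcodes' RNA, the counts describe the chosen cells and test nothing.

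The genes with the most UMIs were shared with the neighbouring groups rather than particular to members. Ldhc, the germ cell lactate dehydrogenase, was highest at 6000 CPM and stood at 6394 CPM in Piwil1-high and 2702 CPM in protamine-high barcodes. Meig1, needed for the manchette and flagellum, had 5043 CPM in members and 4933 and 4025 CPM in those groups. Fabp9, a fatty acid-binding protein of the sperm head, had 3856 CPM and was higher in protamine-high barcodes at 5620 CPM. Lyar (3564 CPM), the chaperone Hsp90aa1 (3279 CPM), the poly(A)-binding protein Pabpc1 (2946 CPM) and Gkap1 (2664 CPM) followed the other course: their protamine-high levels were 463, 625, 509 and 364 CPM. UMIs count molecules and are not scaled to transcript length.

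A smaller set of genes had its highest level in members and little on either side. Plin2, a coat protein of lipid droplets, stood at 89.2 CPM in members (78.1 to 101.5), 0.907 CPM in Piwil1-high barcodes and 4.47 CPM in protamine-high ones. That is 98.4-fold (53.9 to 200) and 19.9-fold (14.3 to 28.5) higher, and the somatic-marker barcodes had 23.7 CPM. Nutm1, a chromatin protein that recruits the acetyltransferase p300, stood at 78.0 CPM (67.6 to 89.5) against 1.65 and 5.02 CPM, or 47.3-fold (29.8 to 79.1) and 15.5-fold (11.2 to 21.9). Tssk5, of the testis-specific serine kinase family, had 40.7 CPM against 1.65 and 2.18 CPM. Smco4 had 175 CPM against 3.05 and 11.7 CPM, and the taurine transporter Slc6a6 156 CPM against 3.88 and 11.1 CPM. Spdye4c had 131 CPM, Fam155a 123 CPM, Lurap1 110 CPM and Nudcd2 100.1 CPM, each with under 10 CPM in both groups. The other 11 of the 20 genes that the ranking named were Tmem243, Phf8-ps, Itgad, Arid3a, Tmem63c, Magea9, Ssxb1, Ssxb2, Cacng5, Zfp819 and Cldn34b3, with 25.2 to 74.5 CPM in members. The ranking against all other barcodes added Clec4a2 (45.8 CPM), Cemip (41.5 CPM), Cytl1 (30.6 CPM) and Nlrc4 (24.8 CPM), each under 1 CPM in Piwil1-high and under 4 CPM in protamine-high barcodes. Magea9, Ssxb1, Ssxb2 and Cldn34b3 are X-linked and belong to families of similar copies between which reads may have been split.

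In barcodes thinned to 3000 UMIs each, a Plin2 UMI was found in 20.1% of members, 0.546% of Piwil1-high, 1.62% of protamine-high and 6.67% of somatic-marker barcodes. For Nutm1 the shares were 20.1%, 0.273%, 1.54% and 2.22%. No member was left out by thinning, since 3000 UMIs is the minimum of the rule. Without thinning, Plin2 was found in 57.7% and Nutm1 in 53.1% of members.

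The 12 genes furthest below all other barcodes were mostly higher in Piwil1-high or in the remaining barcodes. Stra8, which starts meiosis, stood at 0.776 CPM in members and 27.6 CPM in all others, most of it in the remaining barcodes at 163 CPM. H1f6, the linker histone of spermatocytes, had 6.21 CPM (3.55 to 10.1) against 371 CPM (360 to 382) in Piwil1-high barcodes. Tdrd5, a Tudor protein of germ granules, had 3.88 CPM against 173 CPM, and Elfn2 5.82 CPM against 303 CPM. Cntrob, a centriole protein, had 0.776 CPM against 44.9 CPM. Cyp2a12 differed from these, with 2.72 CPM in members, 2.14 CPM in Piwil1-high and 159 CPM in protamine-high barcodes. The other genes the ranking named were Rnf227, Chst1, Rrs1, Ddx51, Tfdp1 and Itpa, with 1.16 to 2.33 CPM in members.

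Genes of the acrosome and of sperm-egg contact were the functional list with the highest share above 2-fold among the lists of more than 10 measured genes. Against all other barcodes, 23 of 51 measured members were higher and 3 lower, beside 17.2% and 32.4% of all genes. The median log2 ratio was 0.81 beside -0.36 over all genes. The list is not independent of the choice of cells, since 3 of the selection markers are acrosome proteins. Spam1, the hyaluronidase of the sperm surface, stood at 130 CPM (116 to 145) against 3.22 CPM in Piwil1-high and 13.5 CPM in protamine-high barcodes. Lyzl6, a lysozyme-like acrosomal protein, had 422 CPM (397 to 448) against 8.08 and 62.3 CPM. Izumo1, the sperm protein that binds the egg receptor Juno, had 145 CPM against 3.63 and 37.6 CPM. Tmem95, also needed for fusion with the egg, had 37.2 CPM against 1.15 and 4.58 CPM.

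A second set of acrosome genes was already high in Piwil1-high barcodes. Acr, encoding the protease acrosin, had 370 CPM in members and 219 CPM in Piwil1-high barcodes. Spink2, a protease inhibitor of the acrosome, had 1338 and 1142 CPM, and Dkkl1 had 1521 and 1546 CPM. Gopc, a Golgi protein of acrosome formation, was lower in members at 5.04 CPM against 65.2 CPM. Another set was higher still in protamine-high barcodes: Spaca9 had 388 CPM in members and 1079 CPM there, and Actrt2, an actin-related protein of the sperm head, 220 and 1155 CPM. The acrosome list thus fell into genes with an earlier, a matching and a later high point.

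**Figure D2:**
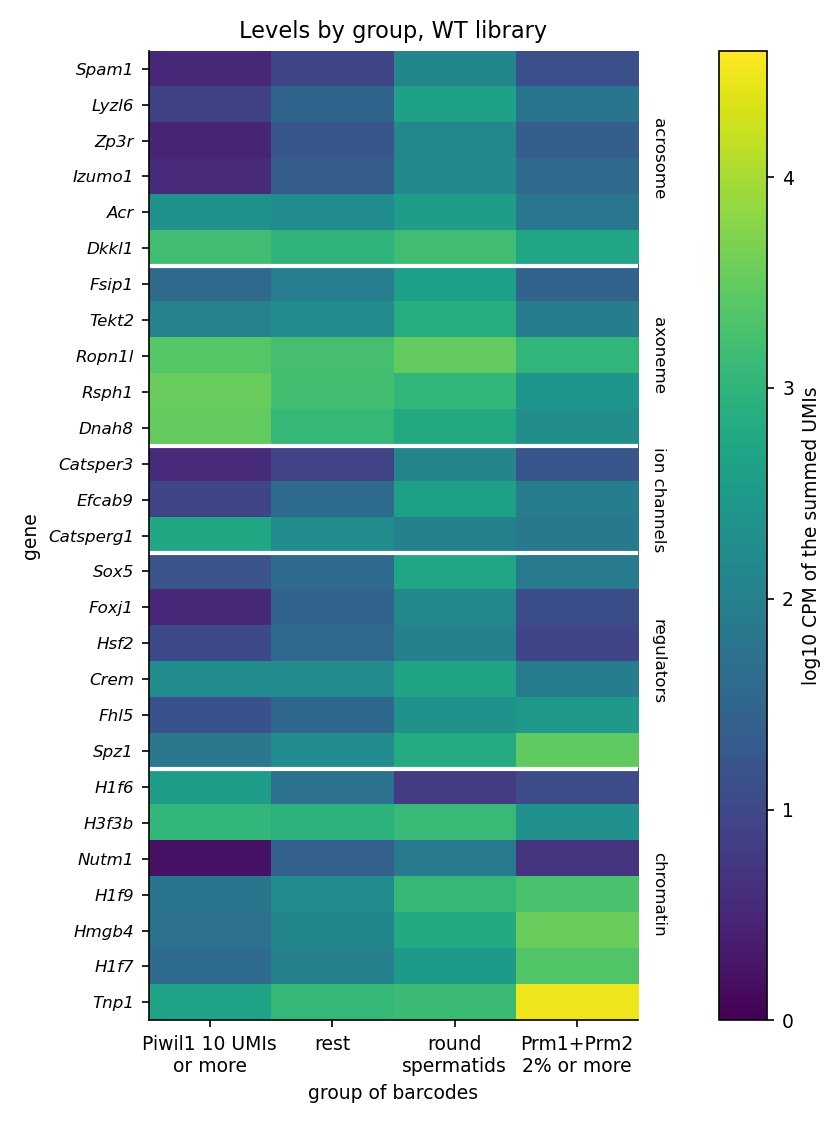
Rows are genes of 5 functional lists, columns the 4 groups of WT barcodes, and colour the log10 CPM of the summed UMIs. Spam1, Lyzl6, Zp3r, Izumo1, Foxj1, Hsf2, Sox5 and Nutm1 are brightest in the round spermatid column, Rsph1 and Dnah8 in the Piwil1-high column, and Spz1, Hmgb4, H1f7 and Tnp1 in the protamine-high column.

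Of 56 measured flagellar genes, 16 were at least 2-fold higher than in all others and 5 lower (median log2 0.45), beside 17.2% and 32.4% of all genes and a median of -0.36. Fsip1, a fibrous sheath-interacting protein, had 394 CPM in members against 39.2 CPM in Piwil1-high and 29.1 CPM in protamine-high barcodes. The tektins Tekt2 and Tekt4, filament proteins of the axoneme, had 747 and 722 CPM, against 108 and 97.4 CPM in Piwil1-high and 88.3 and 78.6 CPM in protamine-high barcodes. The dynein gene Dnah8 and the radial spoke gene Rsph1 were higher in Piwil1-high barcodes. Dnah8 stood at 620 CPM (590 to 651) in members and 3087 CPM in Piwil1-high barcodes, a 4.98-fold difference, and Rsph1 at 1107 and 3409 CPM. Odf2, of the outer dense fibres, and Akap4, of the fibrous sheath, were higher in protamine-high barcodes: Odf2 had 2067 CPM in members and 5175 CPM in protamine-high barcodes, and Akap4 486 and 2348 CPM.

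Sperm ion channel genes showed this within 1 protein complex. CatSper is the calcium channel of the sperm tail, formed by 4 pore subunits and several auxiliary ones. Of the pore genes, Catsper1 stood at 118 CPM in members against 3.22 CPM in Piwil1-high and 18.5 CPM in protamine-high barcodes, Catsper3 at 126 against 3.55 and 16.8 CPM, and Catsper4 at 174 against 5.69 and 42.1 CPM. Catsper2 differed from them, with 298 CPM in members and 244 CPM in Piwil1-high barcodes. Efcab9, a calcium sensor of the complex, had 407 CPM against 9.32 and 84.3 CPM. The auxiliary genes Catsperb, Catspere1 and Catsperg1 were lower in members than in Piwil1-high barcodes, at 40.0 against 98.8 CPM, 7.76 against 101 CPM and 104 against 552 CPM. Over the whole list of 27 measured channels and transporters, 9 were higher than in all others and 4 lower, beside 17.2% and 32.4% of all genes. Slc2a3, a glucose transporter, had 139 CPM against 1621 CPM in Piwil1-high barcodes.

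Of 38 measured transcription regulators, 10 were at least 2-fold higher in members than in all others and 8 lower, beside 17.2% and 32.4% of all genes. Against protamine-high barcodes 21 of 32 were higher, beside 54.0% of all genes. Foxj1, the regulator of motile cilia genes, stood at 154 CPM (139 to 169) against 3.38 CPM in Piwil1-high and 12.8 CPM in protamine-high barcodes, which is 45.4-fold (32.9 to 64.3) and 12.04-fold (9.77 to 14.9). Sox5 had 522 CPM (495 to 551) against 15.3 and 81.9 CPM, and Hsf2, a heat shock factor, 103 CPM (91.2 to 116) against 10.5 and 9.16 CPM. Crem, the cAMP-responsive activator of spermatid genes, had 495 CPM (468 to 522), 2.85-fold (2.66 to 3.06) and 5.46-fold (4.997 to 5.96) above the 2 groups. Its coactivator Fhl5, also named ACT, had 225 CPM against 14.4 CPM in Piwil1-high barcodes but 304 CPM in protamine-high ones. Spz1 had 690 CPM against 67.0 and 2963 CPM. Pou5f2 and Mybl1, factors of spermatocytes, were low in members at 4.27 and 22.5 CPM against 148 and 156 CPM in Piwil1-high barcodes.

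Because Crem and the RFX factors Rfx2, Rfx3 and Rfx4 were measured in members, RefSeq promoters (GRCm38.p6, 250 bases before to 50 after the start) were searched on both strands for their recognition sequences. The cAMP response element TGACGTCA was in 1.79% of all 32851 promoters, 3.65% of the 6432 promoters of genes with at least 50 UMIs in members, and 4.15% (50 of 1204) of those of genes 2-fold above both groups. Its shorter form TGACGT, which the full element contains, was in 7.51%, 12.4% and 12.04%. An exact RFX motif, GTTGCC directly followed by ATGG, was in 0.563%, 1.34% and 2.91% (35 of 1204). The TATA motif TATAAA was in 13.6%, 8.41% and 10.5%. The cAMP element was thus about as frequent in promoters of genes 2-fold above both groups as in those of all genes with at least 50 UMIs. The RFX motif was more frequent in promoters of genes 2-fold above both groups. These shares count promoters and not genes, since the 1204 promoters belonged to 949 genes. A site shared by neighbouring genes counts for each, as with Lrrc34 and Lrriq4 on opposite strands. No test was made. Of the 20 genes with the highest smaller fold, 10 were matched to 13 promoters, with neither motif in them.

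Shown here are the 120 bases before the start, with the motif in capitals, for 2 genes of the functional lists. These 2 genes have the cAMP element there and are 2-fold above both groups. Not all chromosomes were covered by this choice, so other list genes may meet it. Izumo1 is on chromosome 7, plus strand, with the element starting 96 bases before the start. Tbcc, a tubulin-folding cofactor, is on chromosome 17, plus strand, with the element 36 bases before.
Izumo1: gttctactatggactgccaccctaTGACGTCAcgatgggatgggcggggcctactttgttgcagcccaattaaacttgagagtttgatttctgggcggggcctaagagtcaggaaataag
Tbcc: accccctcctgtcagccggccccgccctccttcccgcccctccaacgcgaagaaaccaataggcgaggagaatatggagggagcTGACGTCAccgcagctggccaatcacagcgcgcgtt
For the RFX motif the choice was not limited to the functional lists. Shown are the 3 genes with the most UMIs in members, on the chromosomes covered, that have it there and are 2-fold above both groups. Tex33 is on chromosome 15, minus strand, with the motif 40 bases before the start. Lrrc34 is on chromosome 3, minus strand, at 50 bases, and Fndc11 on chromosome 2, plus strand, at 43 bases. All are read 5′ to 3′ along the gene.
Tex33: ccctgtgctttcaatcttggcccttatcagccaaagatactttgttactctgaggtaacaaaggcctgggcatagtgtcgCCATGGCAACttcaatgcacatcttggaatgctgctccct
Lrrc34: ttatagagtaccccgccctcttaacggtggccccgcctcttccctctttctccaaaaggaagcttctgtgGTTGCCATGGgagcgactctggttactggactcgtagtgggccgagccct
Fndc11: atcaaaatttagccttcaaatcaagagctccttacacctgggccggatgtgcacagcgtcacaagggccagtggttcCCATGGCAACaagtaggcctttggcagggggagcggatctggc
Tex33 stood at 668 CPM in members against 27.2 CPM in Piwil1-high and 290 CPM in protamine-high barcodes. Lrrc34 had 497 CPM against 188 and 48.7 CPM, and Fndc11 467 CPM against 30.8 and 102 CPM. Tbcc had 183 CPM against 83.5 and 30.9 CPM.

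Of 20 measured histone variants and transition proteins, 1 was at least 2-fold higher in members than in all others and 11 were lower. Of all genes, 17.2% were higher and 32.4% lower, and the median log2 ratio of the list was -1.40. Against Piwil1-high barcodes 10 of 17 were higher and 5 lower (median log2 1.52), beside 22.8% and 38.1% of all genes. Against protamine-high barcodes 4 of 18 were higher and 10 lower (median log2 -1.82), beside 54.0% and 14.4% of all genes. H1f9, a linker histone of spermatids, had 1170 CPM in members against 62.0 and 1899 CPM, and H1f7, the later linker histone, 325 CPM against 40.3 and 2254 CPM. Prm3 had 823 CPM against 64.3 and 3309 CPM. The 1 gene above all others was the X-linked H2ab3, a short histone variant, with 33.0 CPM against 0.907 and 2.51 CPM.

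Among 27 measured regulators of histone removal, 2 (Nutm1 and Chd5) were higher than in all others and 11 lower. Of all genes, 17.2% were higher and 32.4% lower. Against protamine-high barcodes 9 of 25 were higher and 2 lower, beside 54.0% and 14.4% of all genes (median log2 0.60 beside 1.16). Chd5, a chromatin remodeller of the histone-to-protamine change, had 208 CPM (190 to 226) in members, 11.1 CPM in Piwil1-high and 168 CPM in protamine-high barcodes. Cdyl had 160, 13.3 and 368 CPM, and Hmgb4 638, 54.2 and 3498 CPM. Brdt, the bromodomain protein that binds acetylated histones, had 224 CPM against 353 CPM in Piwil1-high barcodes. Nutm1 and Chd5 were thus highest in members among the 3 groups, Cdyl and Hmgb4 in protamine-high and Brdt in Piwil1-high barcodes.

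Of 42 measured RNA-binding and germ granule genes, 4 were at least 2-fold higher than in all others and 14 lower, the latter near the share of all genes (17.2% and 32.4%). Upf3b, an X-linked factor of nonsense-mediated decay, had 135 CPM (121 to 150) against 3.38 and 18.8 CPM. The somatic-marker barcodes had 261 CPM, and whether this was their own RNA was not tested. Upf1, of the same pathway, had 6.59 CPM against 165 CPM in Piwil1-high barcodes, while Upf3a had 594 and 671 CPM. Piwil2 and Tdrd1, of the piRNA pathway, had 18.6 against 199 CPM and 34.5 against 366 CPM. Ddx4 and Ddx25, helicases of the chromatoid body, kept levels near those of Piwil1-high barcodes, with 562 against 639 CPM and 555 against 518 CPM.

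Genes of synapsis and recombination were mostly low: 17 of 28 measured were at least 2-fold lower than in all others and 2 higher (median log2 -1.35), beside 32.4% and 17.2% of all genes. Sycp3, of the synaptonemal complex, had 51.2 CPM against 498 CPM in Piwil1-high barcodes, and Spo11 12.4 against 89.1 CPM. The 2 were Syce3, at 297 against 144 CPM in Piwil1-high barcodes, and Rec8. Rec8, which encodes a meiotic cohesin subunit, stood at 105 CPM (92.6 to 118) in members, 2.80 CPM in Piwil1-high and 9.27 CPM in protamine-high barcodes, or 37.4-fold (26.1 to 55.1) and 11.3-fold (8.82 to 14.6) higher. The remaining barcodes had 24.9 CPM and the somatic-marker barcodes 31.6 CPM. After thinning, a Rec8 UMI was found in 24.2% of members, 1.09% of Piwil1-high and 8.89% of somatic-marker barcodes. The other cohesin genes of meiosis did not share this: Smc1b had 495 CPM against 488 CPM in Piwil1-high barcodes, Stag3 201 against 329 CPM, and Rad21l a single UMI in members (0.388 CPM). Rad21l was at 14.1 CPM in the remaining barcodes.

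Of 28 measured cell division genes, 12 were lower than in all others and 4 higher, beside the same shares. The 4 were Cdc25c, Ccnb1, Ccnb2 and Plk1, chosen for mention after their values were seen. Cdc25c, the phosphatase that activates the mitotic kinase, had 47.7 CPM (39.7 to 56.9) against 3.79 and 16.5 CPM, and was at 0 in somatic-marker barcodes. Ccnb1, cyclin B1, had 126 CPM (113 to 141) against 26.6 and 16.2 CPM, with 137 CPM in the remaining barcodes. Mki67 and Bub1b were low, at 15.5 and 14.7 CPM against 83.4 and 87.0 CPM in Piwil1-high barcodes.

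In summed UMIs, X- and Y-linked genes were far above their level in Piwil1-high barcodes. X-linked genes made up 0.967% of the members' UMIs (0.955% to 0.979%) and 0.0713% of those of Piwil1-high barcodes (0.0698% to 0.0728%), with Tsga8, an X-linked selection marker, left out. The share was 1.59% in protamine-high, 1.27% in the remaining and 3.84% in somatic-marker barcodes. By barcode, the lowest member had 0.398%, the median 0.852% and the highest 4.19%. In Piwil1-high barcodes these were 0.0197%, 0.0668% and 1.03%, and 4 of the 366 reached the lowest member. Without the 4 members that carried Sertoli transcripts the summed share was 0.937%.

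**Figure D3:**
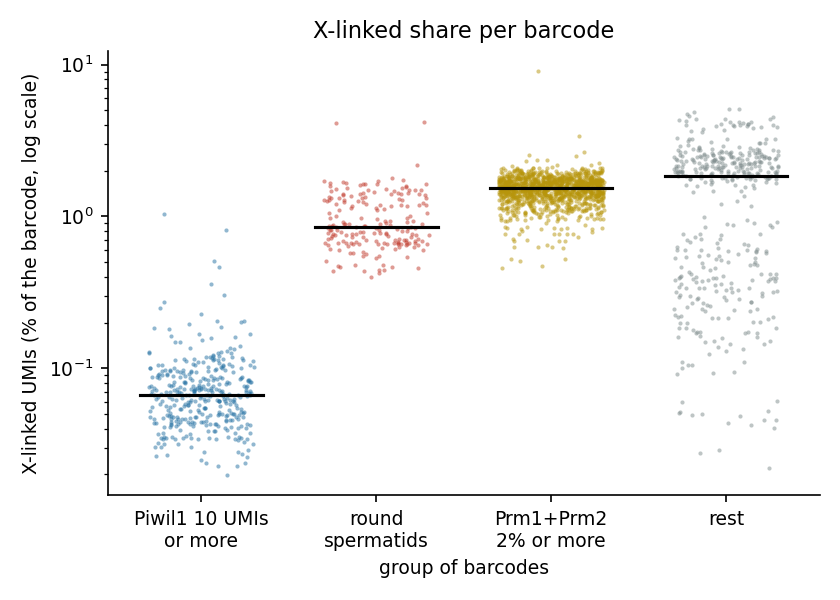
Points are WT barcodes and the vertical axis is the share of their UMIs from X-linked genes on a log scale, with black lines at the medians. The members lie from 0.398% to 4.19%; 4 of the 366 Piwil1-high and all 1232 protamine-high barcodes lie at or above the lowest member.

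By gene, 160 of 164 measured X-linked genes were at least 2-fold higher in members than in Piwil1-high barcodes and 1 was lower. The median log2 ratio was 4.39 against -0.53 over autosomal genes, of which 21.7% were 2-fold higher. A gene was measured when both sides together held at least 50 UMIs. X-linked genes held 24925 UMIs in members and 8641 in Piwil1-high barcodes, so many could pass mainly through members. That filter thus partly sets the count and the median, which are a description. Against protamine-high barcodes, 113 of 249 X-linked genes were higher and 65 lower, with a median of 0.74 against 1.17 over autosomal genes, of which 54.3% were higher. Ribc1, a ciliary protein, had 176 CPM (161 to 193) against 3.88 CPM in Piwil1-high and 35.4 CPM in protamine-high barcodes. Cypt1 and Cylc1, which encode proteins of the spermatid perinuclear theca, had 243 and 231 CPM against 11.3 and 7.75 CPM in Piwil1-high barcodes, and were higher in protamine-high ones at 531 and 332 CPM. Of the 34 genes found from the fixed list of X-linked spermatid genes, 16 were measured under the same filter. All 16 were higher than in Piwil1-high barcodes. The multi-copy Slx was at 1.55 CPM and its Y-linked relative Sly at 0, in a matrix where reads of near-identical copies may not have been counted.

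Y-linked genes made up 0.0243% of the members' UMIs (0.0225% to 0.0263%), 0.00158% in Piwil1-high, 0.0113% in protamine-high and 0.0484% in the remaining barcodes. Eif2s3y, a translation initiation factor subunit, had 61.3 CPM (52.1 to 71.6) against 1.73 and 9.05 CPM, and the somatic-marker barcodes had 86.9 CPM. Uba1y had 20.6 CPM, Usp9y 12.4 CPM and Zfy2 8.53 CPM. Of the members' 627 Y-linked UMIs, 158 were from Eif2s3y. By gene, only 4 Y-linked genes were measured against Piwil1-high barcodes, with 2 at least 2-fold higher and 0 lower. Of the 134 members with at least 10000 UMIs (median 15329), 130 had a Y-linked UMI (median 4) and all had at least 56 X-linked UMIs. In Piwil1-high barcodes of that depth (median 31762 UMIs), 137 of 358 had a Y-linked UMI. After thinning to 3000 UMIs the shares with a Y-linked UMI were 49.5% of members and 4.92% of Piwil1-high barcodes. No split of the members into X-bearing and Y-bearing cells was attempted, and doublets were not removed.

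Members also differed among themselves. The order laid down for this was the share of Prm1 and Prm2, cut into groups of 65, 65 and 64 barcodes. It followed depth: the median total was 16474 UMIs in the lower, 13610 in the middle and 4118 in the upper group, with 30, 38 and 41.5 protamine UMIs, and Spearman's rho of the share with total UMIs was -0.67 over the 194 barcodes of this 1 library. Between upper and lower group, 475 of 4943 genes with at least 50 UMIs were 2-fold higher (9.61%) and 323 lower (6.53%). Prss37 and Cst13 were among the highest, at 128 against 5.68 CPM and 244 against 14.6 CPM. The part of depth in this order was not tested.

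A second order, added after the data were seen, was the first principal component of the 1000 most variable genes among members, which held 22.1% of their variance (6.80% for the next). Components from separate sets of those genes ranked the barcodes alike (rho 0.97). Its rho was -0.08 with total UMIs, 0.37 with the protamine share and 0.76 with the share of the 6 selection markers. The marker share was 0.228%, 0.363% and 0.543% in the lower, middle and upper groups, and that of pachytene and diplotene markers 0.406%, 0.327% and 0.239%. The lower, middle and upper groups had medians of 13524, 13473 and 13124 UMIs. Its direction was set so that Prm3 was higher at the upper end. The sum of Tnp1 and Tnp2 was a median of 43 UMIs (16 to 320) in the upper and 19 (4 to 45) in the lower group. Since the order came from these genes, the differences along it are a description.

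Along this order 1030 of 5022 genes were 2-fold higher in the upper than the lower group (20.5%) and 1109 lower (22.1%). Hmgb4 stood at 137, 399 and 1472 CPM in the lower, middle and upper groups, H1f7 at 67.6, 128 and 833 CPM, and Prm3, which set the direction, at 206, 571 and 1804 CPM. Cdyl had 20.7, 54.5 and 434 CPM, and Fhl5 43.6, 139 and 527 CPM. Klf17, a zinc finger factor, had 1.09, 8.12 and 103 CPM, from 1 UMI in the lower and 82 in the upper group, and Asb17, a ubiquitin ligase adaptor, 10.9, 39.5 and 344 CPM. Cct8l1 and Rnf148 had no UMI in the lower group and 98 and 87 UMIs in the upper. Lemd1, Saxo1, Lrrd1, Hdac11, Slc29a3 and Spata31d1d were also among the 12 highest.

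Other genes were highest at the lower end. Of 52 measured axoneme and flagellum genes, 13 were lower in the upper group, near the share of all genes (22.1%). Another 6 were higher, beside 20.5% of all genes. Dnah8 had 940, 606 and 269 CPM, Rsph1 1705, 1065 and 467 CPM, Ccdc39 491, 352 and 92.6 CPM, and the poly(A)-binding protein gene Pabpc6 524, 181 and 55.1 CPM. Bms1, a ribosome assembly factor, had 265, 127 and 15.02 CPM, and Kif20a, a kinesin of cell division, 73.0, 52.2 and 3.76 CPM. Of 14 measured division genes, 11 were lower at the upper end and none higher: Ccnb1 had 203, 117 and 47.6 CPM and Aurka 246, 95.1 and 32.6 CPM. Sirt3, Hadhb and Timm44, genes of mitochondrial proteins, were among the 12 lowest, with 61.0 to 124 CPM in the lower and 6.26 to 10.0 CPM in the upper group.

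Some genes varied little along the order. Crem had 456, 542 and 488 CPM, Acr 370, 377 and 364 CPM, and Hsf2 94.8, 118 and 96.4 CPM. Rec8 was highest in the middle, with 91.6, 139 and 82.6 CPM. Genes that marked members against both neighbours did not share 1 course: Sox5 had 289, 501 and 813 CPM and Lyzl6 180, 407 and 715 CPM, while Foxj1 had 191, 164 and 100.2 CPM and Nutm1 88.3, 103 and 38.8 CPM. The X-linked share was 0.696%, 0.877% and 1.37%.

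**Figure D4:**
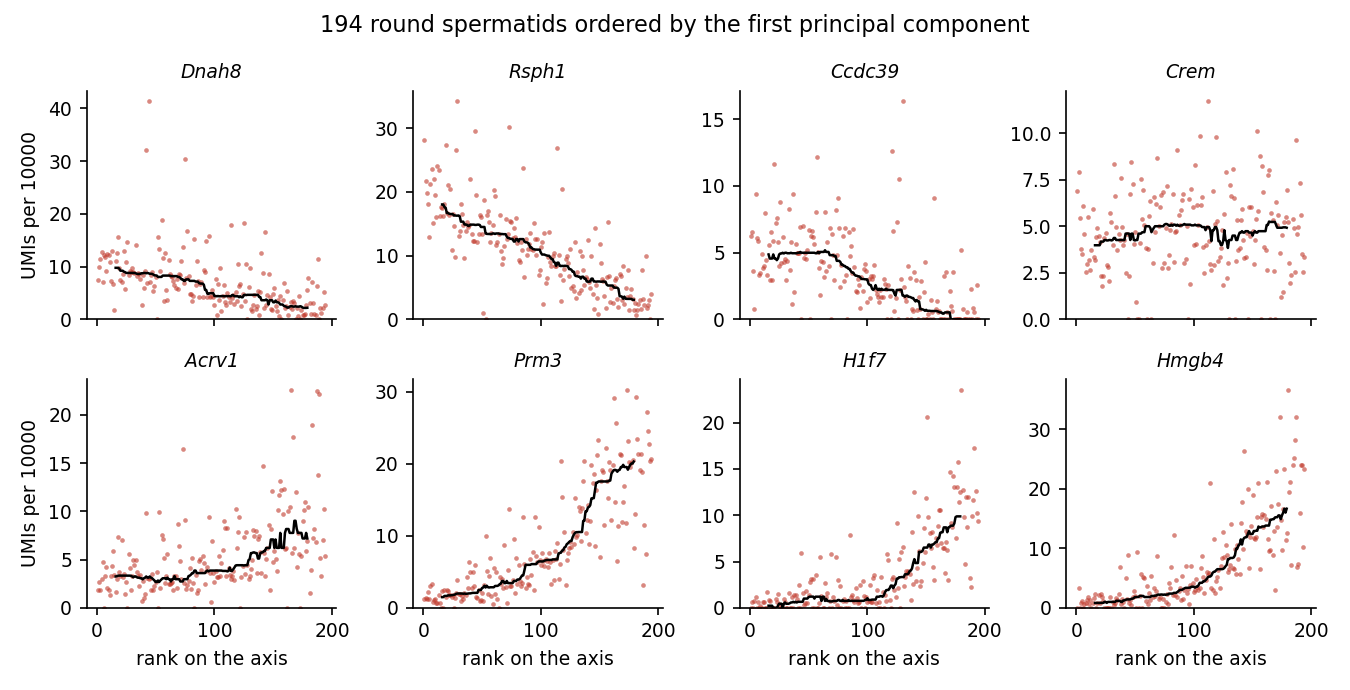
Each point is 1 of the 194 members, placed by its rank on the first principal component, with UMIs per 10000 of 8 genes on the vertical axes and a running median over 31 barcodes as the line. Dnah8, Rsph1 and Ccdc39 run down, Crem stays level, and Prm3, H1f7 and Hmgb4 climb mainly after rank 100.

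The same genes were then read in barcodes that the order had not used. Of 1024 genes at the upper end, 942 (92.0%) were higher in protamine-high than in Piwil1-high barcodes, with a median log2 ratio of 3.74. Of 1106 genes at the lower end, 41 (3.71%) were, with a median of -2.85, and over all 4995 genes the share was 35.2%. The direction had been set by Prm3, itself higher in protamine-high barcodes, so which end matched them was fixed by that choice. Apart from its direction, the order among members thus ran along the difference between the 2 outer groups. Both share the library and its free RNA with the members, and whether free RNA or captured pairs of cells contribute to it was not tested.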

How the data were processed

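The deposited matrices give, as whole-number counts, the UMIs of each gene in each barcode for 1 WT and 1 RAD21L KO testis library. Per the file headers, the authors made these counts using Cell Ranger 6.1.2. The submitters' processing notes also name Seurat 4.3 and GRCm39. The barcode calling and the use of strand in counting are not given in the sources used here. The deposited gene and barcode names were used as given, with no renaming.

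UMIs were summed over the barcodes of a group and scaled to CPM in Python 3.11.15 with NumPy 2.4.6, SciPy 1.17.1 and pandas 2.3.3. A gene was counted when both sides together held at least 50 UMIs, with counts under 3 set to 3, and called at 2-fold. For genes above both neighbouring groups, members alone had to hold at least 50 UMIs. Intervals are exact Poisson for levels, Clopper-Pearson for shares and conditional binomial for ratios, at 95%, and cover counting error only. Depth was 3009 to 45250 UMIs per member and 2577994 UMIs in sum. Chromosomes were matched by symbol to an annotation of GRCm38, whose coordinates were left aside. There were 1497 genes, with 1.49% of the members' UMIs, that had no match. Doublets were not called or removed. An alternative without the highest 5% of UMI totals was run instead.

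The members and gene lists were chosen with earlier results of these data known. Of 639 list genes, 627 were found. Genes named in the text were drawn from the 20 with the largest smaller fold against both neighbouring groups and the 12 extremes each way against all others. Further sources were the 10 highest in CPM, up to 4 extremes each way of each list, and the 12 extremes each way of each order among members. Other list members are named as examples chosen after their values were seen. Predicted genes, mitochondrial and ribosomal protein genes and selection genes were left out of ranks. Simulated sums with known 4-fold differences were used to check the steps. KO barcodes were used only to apply the rule.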

Additional observations from a re-analysis of the deposited data

How the results depend on the processing

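No paired analysis was possible because the labels give 1 library per genotype with no replicate number. With 1 library, no value here has an estimate of the spread between animals. Depth limits the scarce genes: Y-linked genes other than Eif2s3y had at most 53 UMIs over all members. The members' share of 8.74% of barcodes became 14.1% with a minimum of 2000 UMIs, 10.2% with markers at 0.1%, 6.04% with markers at 0.25%, 7.30% with protamines under 1% and 7.39% without Tsga8 among the markers. Under the same 5 settings in that order the X-linked share was 0.997%, 0.927%, 1.04%, 0.931% and 1.01%. It was 1.01% with protamines under 3%, 0.989% without the highest 5% of UMI totals and 0.937% without the 4 members carrying Sertoli transcripts, against 0.967%. In all these settings it lay above the 0.0713% of Piwil1-high barcodes. With at least 200 UMIs per gene, 1461 genes were 2-fold higher and 3148 lower than in all others, since fewer genes were counted. Genes 2-fold different between the ends of an order among members numbered 798 by protamine share, 1420 by the Tnp1 and Tnp2 share, 2139 by the first principal component and 1888 by that component in members of at least 10000 UMIs; the cause was not tested. The principal component, the restriction to 10000 UMIs and the removal of Sertoli-carrying members were added after the data were seen. The 36 genes ranked by fold kept their direction and their side of 2-fold in all 252 gene values over 7 settings. They had been picked for extreme folds in barcodes that the settings share, so little else could result.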

Other observations

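Testis-specific kinase genes, which act in late spermatids, also differed in when they were high. Of 25 measured kinases and phosphatases, 6 were at least 2-fold higher in members than in all other WT barcodes and 2 lower, beside 17.2% and 32.4% of all genes. Against Piwil1-high barcodes 11 of 25 were higher, beside 22.8%. Tssk4 stood at 246 CPM in members against 5.61 CPM in Piwil1-high and 37.2 CPM in protamine-high barcodes. Tssk1 had 635 CPM against 25.2 and 444 CPM, and Tssk2 548 CPM against 34.2 and 1377 CPM. Tssk6 had 82.2 CPM against 30.4 and 1399.9 CPM, near the 76.3 CPM of somatic-marker barcodes. Camk4, a calmodulin kinase, had 7.63, 59.2 and 195 CPM in the lower, middle and upper groups along the first principal component.

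Of 29 measured ubiquitin and proteasome genes, 5 were higher than in all others and 5 lower, the former at the share of all genes (17.2% higher and 32.4% lower). Rnf151, a ring finger protein of the acrosome, had 789 CPM against 31.7 CPM in Piwil1-high and 556 CPM in protamine-high barcodes, and Klhl10, an adaptor of the cullin 3 ligase, 387 CPM against 18.7 and 431 CPM. Psma8, the spermatocyte proteasome subunit, had 102 CPM against 539 CPM in Piwil1-high barcodes. Among germline forms of metabolic enzymes 5 of 30 were higher than in all others and 9 lower, near those shares. Gapdhs, the sperm glyceraldehyde phosphate dehydrogenase, had 851 CPM against 110 and 4934 CPM, and Cyct, the testis cytochrome c, 92.7 CPM against 341 and 21.5 CPM. Of 15 measured somatic counterparts, none was higher than in all others and 7 were lower: Gapdh had 14.4 CPM in members and 172 CPM in the remaining barcodes. Of 34 measured manchette and head-shaping genes, 8 were higher and 5 lower, beside the same shares. Clip1, a protein of microtubule ends, had 340 CPM against 39.9 and 96.1 CPM, and Sun5, which ties the sperm head to the tail, 180 CPM against 4.29 and 37.0 CPM.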
